A study of Zea mays with 6 samples.

Results

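The genes described here are 4 floral transition genes of maize, zfl1 (Zm00001d026231), zfl2 (Zm00001d002449), zmm4 (Zm00001d034045) and zmm15 (Zm00001d013259), out of 45953 features in the count table. They were taken by identifier for their known roles, with earlier results of these data known, and all 4 were among the 23349 features that passed the filter on low counts. RNA came from tassel meristems of 1 mm, which form the male inflorescence, of the tls1 (tassel-less1) mutant (3 libraries) and of WT (3 libraries). Both genotypes carry the cultivar label B73, and the labels describe tls1 as boron deficient. All plants were raised in a greenhouse in long days (16 hours light, 8 hours dark). Their fertilizer supplied 238 ppm nitrogen, with boron at 0.08 ppm, and no other treatment was given. The series' design places the sampling before the mutant tassel shows defects in form, and the labels give neither the tls1 allele nor the number of plants behind a library.

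LEAFY-type transcription factors turn lateral primordia of the inflorescence into flowers and, in maize, also act in the change from vegetative to inflorescence growth. The maize genome holds LEAFY as a duplicate pair, zfl1 and zfl2. Plants that lack both copies have disturbed floral organs and fewer tassel branches. APETALA1/FRUITFULL-type MADS-box factors, to which zmm4 and its duplicate zmm15 belong, switch on in the shoot apex at the floral transition. In maize, zmm4 acts downstream of the leaf-derived flowering signal, and raising its activity makes plants flower earlier. The 4 genes are therefore read as markers of how far an inflorescence has advanced.

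Counted reads summed to between 73471188 and 74733984 in tls1 libraries and between 72498318 and 77619452 in WT libraries. Levels are given as CPM, the count of a gene divided by the counted reads of its library and multiplied by 1000000. The lowest count of a member in any library was 1105, for which counting error alone is 3.01%. No transcript lengths of the files' annotation were used here, so levels are compared between libraries and not between genes. In whole-tissue RNA, fewer cells that express a gene and less of its RNA per cell cannot be told apart.

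None of the 4 genes was called different in tls1 meristems. A gene counted as called when its p, adjusted over all tested genes, was under 0.05. The labels number the libraries of each genotype 1, 2 and 3, and fits were made without and with this replicate number as a block, which compares each tls1 library with the WT library of its number. By edgeR without the replicate block, 0 of 4 passed an adjusted p of 0.05 and 0 of 4 had an unadjusted p under 0.05, where 7.33% of all tested genes were higher and 9.22% lower in tls1. Over all tested genes that edgeR fit called 1 gene, which is 0.00428%. With the replicate number as a block, edgeR also called 0 of 4, against 0.694% of all tested genes. DESeq2 and limma-voom called 0 of 4 as well. Over all 23349 tested genes, DESeq2 called 5.35% and limma-voom called 2 genes. The median log2 fold change, tls1 over WT, was 0.06 over the 4 genes and 0.01 over all tested genes. The tls1 and WT libraries overlapped in the level of each of the 4 genes. Over all tested genes, every tls1 library lay above every WT library in 11.3% and below in 11.2%.

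**Figure D1:**
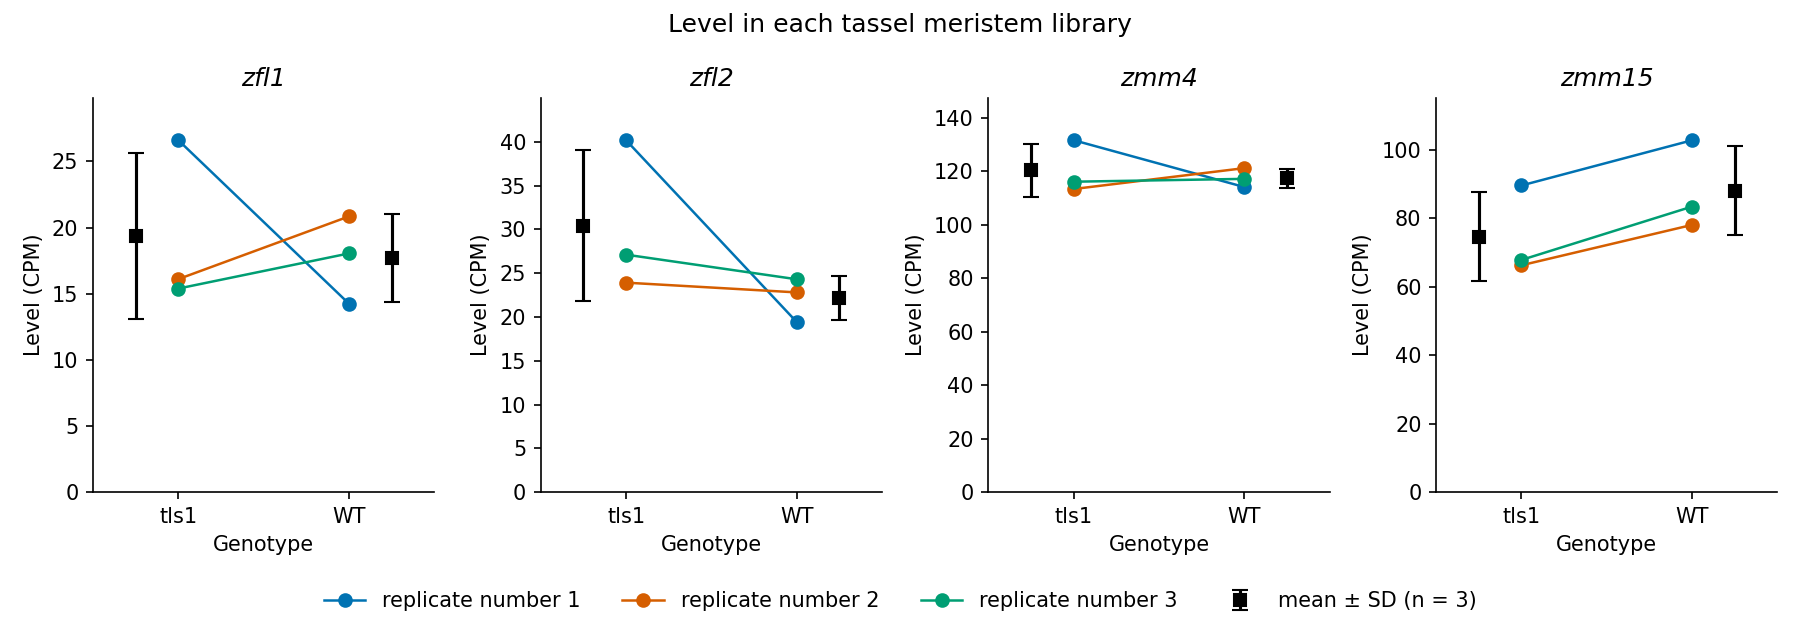
Level of each gene in CPM (vertical axis, from 0) in the 3 tls1 libraries (left) and the 3 WT libraries (right). Lines join libraries of 1 replicate number, and black squares show mean ± SD. The lines of zmm15 run in parallel, with tls1 below WT in each pair, while those of zfl1 cross, with tls1 1 at 26.6 CPM and WT 1 at 14.2 CPM.

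zfl1 had 26.6, 16.1 and 15.4 CPM in tls1 libraries 1, 2 and 3, against 14.2, 20.8 and 18.0 CPM in WT libraries 1, 2 and 3. The tls1 1 library was the highest of all and its same-numbered WT 1 library the lowest, and the other 4 libraries lay between them. The mean level of zfl1 was 19.4 ± 6.27 CPM in tls1 and 17.7 ± 3.32 CPM in WT (SD, n = 3 each). The difference was smaller than either SD, with a log2 fold change of 0.11 ± 0.24 (SE) and an edgeR adjusted p of 0.861. Its 95% interval ran from -0.48 to 0.69 on the log2 scale, so changes of zfl1 of up to those sizes in either direction were within reach of the error. The direction turned when either library of number 1 was left out: without tls1 1 the log2 fold change of zfl1 was -0.18 (edgeR adjusted p = 0.770), and without WT 1 it was -0.02 (edgeR adjusted p = 0.988).

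zfl2 had 40.2, 23.9 and 27.1 CPM in tls1 libraries 1, 2 and 3, against 19.4, 22.8 and 24.3 CPM in WT libraries 1, 2 and 3. As with its duplicate, tls1 1 was the highest library and WT 1 the lowest, but here tls1 2 and tls1 3 did not fall below the WT libraries of their number. The mean level of zfl2 was 30.4 ± 8.61 CPM in tls1 and 22.2 ± 2.50 CPM in WT (SD, n = 3 each). This was the widest fitted difference of the 4 genes, with a log2 fold change of 0.43 ± 0.20 (SE), a 95% interval from -0.05 to 0.92 and an edgeR adjusted p of 0.344. DESeq2 gave zfl2 an unadjusted p of 0.0370 and an adjusted p of 0.245. Of all tested genes, 8.65% were higher in tls1 at an unadjusted DESeq2 p under 0.05. Without the tls1 1 library the log2 fold change of zfl2 was 0.19 (edgeR adjusted p = 0.650).

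zmm4 was the steadiest of the 4 genes. It had 131.6, 113.3 and 116.1 CPM in tls1 libraries 1, 2 and 3, against 114.0, 121.1 and 117.1 CPM in WT libraries 1, 2 and 3. The highest library exceeded the lowest 1.16-fold, compared with 1.87-fold for zfl1, 2.07-fold for zfl2 and 1.55-fold for zmm15. The mean level of zmm4 was 120.3 ± 9.83 CPM in tls1 and 117.4 ± 3.56 CPM in WT (SD, n = 3 each), and edgeR put its log2 fold change at 0.01 ± 0.07 (SE, adjusted p = 0.941). The 95% interval of this change, from -0.15 to 0.18 on the log2 scale, was the narrowest of the 4 in the fit without the block. With the block it ran from -0.18 to 0.20, and that of zmm15 was narrower. The sign of so small a value turned with single libraries: it was -0.04 without tls1 1 and -0.0003 without WT 1. Again tls1 1 was the highest library.

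zmm15 had 89.5, 66.2 and 67.8 CPM in tls1 libraries 1, 2 and 3, against 102.7, 78.0 and 83.4 CPM in WT libraries 1, 2 and 3. Unlike the other 3 genes, zmm15 followed the replicate number in both genotypes: number 1 was highest, number 3 next and number 2 lowest in tls1 and in WT. The mean level of zmm15 was 74.5 ± 13.0 CPM in tls1 and 88.0 ± 13.0 CPM in WT (SD, n = 3 each), and edgeR put its log2 fold change at -0.26 ± 0.15 (SE, adjusted p = 0.440). The size of this change depended on both libraries of number 1: the log2 fold change of zmm15 was -0.13 without WT 1 (edgeR adjusted p = 0.815) and -0.40 without tls1 1 (edgeR adjusted p = 0.400). With the replicate block the log2 fold change of zmm15 was again -0.26, with an SE of 0.06 and a 95% interval from -0.40 to -0.13. Its edgeR p with the block was 0.00367 unadjusted and 0.105 adjusted over all tested genes, so zmm15 was not called. In that fit 10.7% of all tested genes were lower in tls1 at an unadjusted p under 0.05, a limit far looser than the p of zmm15.

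Within the same-numbered pairs, zmm15 was lower in tls1 in 3 of 3 pairs. The tls1 level differed from the WT level by -12.9% in pair 1, -15.1% in pair 2 and -18.7% in pair 3. Of all tested genes, 21.3% were lower in tls1 in all 3 pairs, so the agreement of direction alone was common. zfl2 was higher in tls1 in 3 of 3 pairs, as were 24.6% of all tested genes, but very unevenly. Its tls1 level differed from WT by 107% in pair 1, 4.88% in pair 2 and 11.6% in pair 3. zfl1 was higher in tls1 in 1 of 3 pairs, with differences of 86.8% in pair 1, -22.7% in pair 2 and -14.7% in pair 3. zmm4 was likewise higher in 1 of 3 pairs, with differences of 15.4% in pair 1, -6.45% in pair 2 and -0.907% in pair 3. All 4 genes had their highest tls1 to WT ratio in pair 1. It stood well apart from pairs 2 and 3 in zfl1 and zfl2, while in zmm15 the 3 pairs lay close together. With the block but without pair 1, the log2 fold change was -0.31 for zfl1 (edgeR adjusted p = 0.193), 0.11 for zfl2 (edgeR adjusted p = 0.601), -0.06 for zmm4 (edgeR adjusted p = 0.698) and -0.27 for zmm15 (edgeR adjusted p = 0.106).

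**Figure D2:**
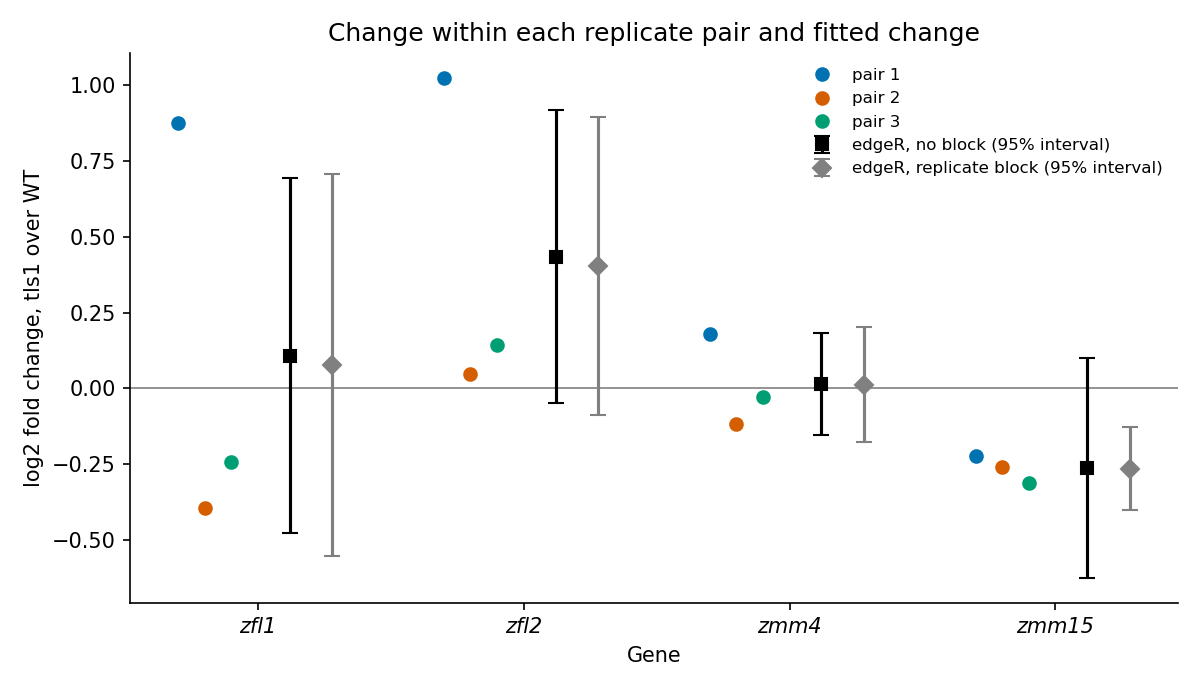
log2 fold change, tls1 over WT, of each gene within each same-numbered pair (coloured points, TMM-scaled CPM) and as fitted by edgeR without (black) and with (grey) the replicate block, with 95% intervals. The 3 points of zmm15 lie close together below 0, while pair 1 stands far above pairs 2 and 3 in zfl1 and zfl2.

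The balance between the copies of each duplicate pair was compared within libraries, where library size plays no part. Of the counts assigned to zfl1 and zfl2 together, zfl1 held 39.8%, 40.2% and 36.2% in tls1 libraries 1, 2 and 3, against 42.3%, 47.8% and 42.6% in WT libraries 1, 2 and 3. All tls1 libraries lay below all WT libraries, whereas the levels of the 4 genes and the sums over each duplicate pair overlapped between genotypes. Single genes separated in this way too: tls1 lay fully below WT in 11.2% of all tested genes and fully above in 11.3%. For shares of other gene pairs no background was computed, either of this separation or of agreement within the same-numbered libraries. The mean share was 38.8% ± 2.22 in tls1 and 44.2% ± 3.06 in WT (SD, n = 3 each, 2-sided exact permutation p = 0.1, the smallest that 3 against 3 libraries allow, and 0.2 adjusted over both gene pairs). The zfl1 share was lower in tls1 in each pair, with differences, tls1 minus WT, of -2.47, -7.52 and -6.40 percentage points in pairs 1, 2 and 3. For tls1 1 the 95% Wilson interval of the share, 38.5% to 41.2%, overlapped that of WT 1, 40.4% to 44.2%. The intervals of pairs 2 and 3 did not overlap within their pair. Such intervals cover counting error only.

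Of the counts assigned to zmm4 and zmm15 together, zmm4 held 59.5%, 63.1% and 63.1% in tls1 libraries 1, 2 and 3, against 52.6%, 60.8% and 58.4% in WT libraries 1, 2 and 3. The groups overlapped, since tls1 1 lay below WT 2. The mean share was 61.9% ± 2.09 in tls1 and 57.3% ± 4.22 in WT (SD, n = 3 each, exact permutation p = 0.2, also 0.2 adjusted). Within pairs the zmm4 share was higher in tls1 by 6.89, 2.29 and 4.71 percentage points in pairs 1, 2 and 3. The treatment of reads that match several places is not stated in the labels, and duplicates can share reads, so the split between copies is less certain than their sum.

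**Figure D3:**
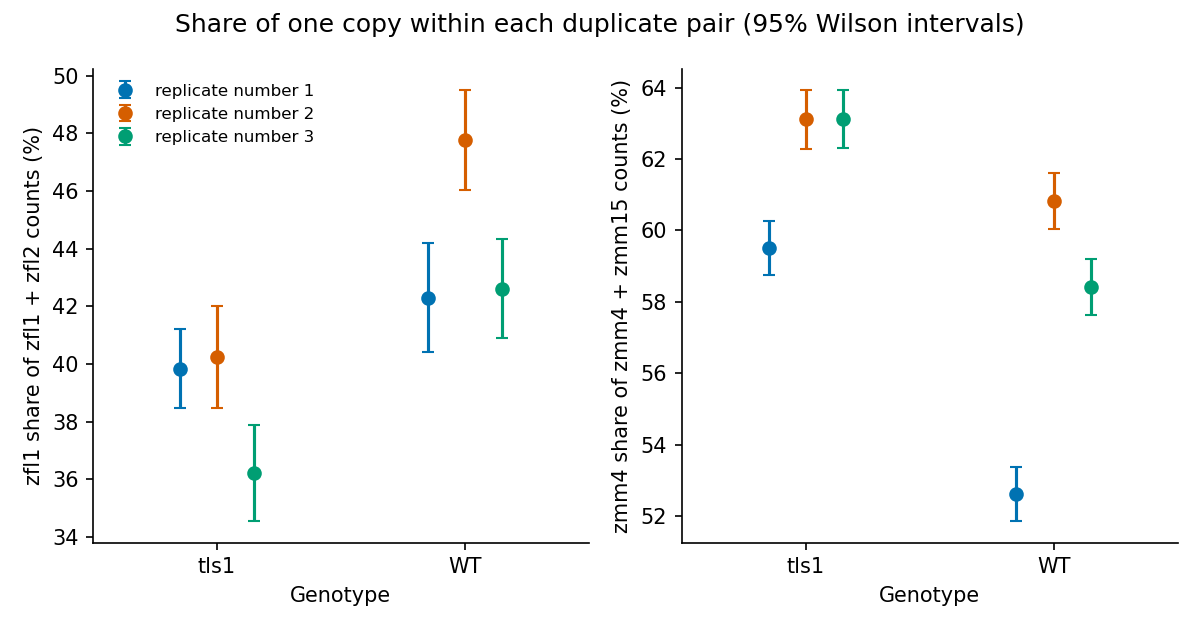
Share of zfl1 in the counts of zfl1 and zfl2 (left panel) and of zmm4 in the counts of zmm4 and zmm15 (right panel), in percent, per library with 95% Wilson intervals; the vertical axes do not start at 0. The zfl1 share lies between 36.2% and 40.2% in tls1 libraries and between 42.3% and 47.8% in WT libraries.

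Summed over both LEAFY copies, the level was 66.8, 40.0 and 42.5 CPM in tls1 libraries 1, 2 and 3, against 33.7, 43.6 and 42.3 CPM in WT libraries 1, 2 and 3. The sum thus stood apart in tls1 1, at 1.98 times the WT level of its pair, while the ratio was 0.917 in pair 2 and 1.00 in pair 3. Summed over zmm4 and zmm15, the level was 221.1, 179.6 and 183.8 CPM in tls1 libraries 1, 2 and 3, against 216.8, 199.1 and 200.5 CPM in WT libraries 1, 2 and 3. Here the ratio of tls1 to WT was 1.02, 0.902 and 0.917 in pairs 1, 2 and 3.

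The tls1 1 library was the highest of the 6 for zfl1, zfl2 and zmm4. It was also the highest in 25.3% of all tested genes, compared with 9.10% to 18.2% for each of the other 5 libraries, and was thus the library that most often stood highest, while it was the lowest in 20.3%. WT 1, the lowest library for zfl1 and zfl2, was the lowest in 21.0% of all tested genes, compared with 11.7% to 20.3% for each of the other 5 libraries. On the scale of log2(CPM + 0.5), tls1 1 exceeded the next library by 0.56 for zfl2. Of all tested genes, 2.06% reached or passed that gap in tls1 1. For zfl1 the gap was 0.34, reached by 5.39% of tested genes, and for zmm4 it was 0.12, reached by 14.4%.

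Levels of zfl1 and zmm4 ran opposite to the share of reads from mitochondrial genes. That share was 0.135%, 0.316% and 0.244% in tls1 libraries 1, 2 and 3, against 0.319%, 0.187% and 0.202% in WT libraries 1, 2 and 3. The library with the fewest mitochondrial reads, tls1 1, had the most zfl1 and the most zmm4, and the next, WT 2 and WT 3, followed in the same order for both genes. Within each genotype, the order of zmm4 levels was the reverse of that of the mitochondrial shares, and so was that of zfl1 in WT, while in tls1 the libraries 2 and 3 stood the other way round for zfl1. Over the 6 libraries, on log2 scales, Pearson's r of zfl1 was -0.94 (exact permutation p = 0.00556, or 0.0111 after adjustment), while Spearman's rho was -0.94 (exact permutation p = 0.0167, or 0.0333 after adjustment). zmm4 had r = -0.94 (exact permutation p = 0.00278, or 0.0111 after adjustment), while rho was -0.94 (exact permutation p = 0.0167, or 0.0333 after adjustment). Without tls1 1 and WT 1, whose mitochondrial share was farthest from the median, r was -0.78 for zfl1 and -0.92 for zmm4.

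zfl2 had r = -0.78 (exact permutation p = 0.0625, or 0.0833 after adjustment), while rho was -0.60 (exact permutation p = 0.242, or 0.322 after adjustment). Without the same 2 libraries r was 0.28, so for zfl2 the relation rested on them. zmm15 had r = -0.17 (exact permutation p = 0.722, also 0.722 after adjustment), while rho was -0.09 (exact permutation p = 0.919, also 0.919 adjusted). Without those 2 libraries its r was -0.86. Of 23022 features outside the organelle genomes with reads in every library, 0.0956% had an r as low as that of zfl1 and 0.0999% as low as that of zmm4, compared with 1.86% for zfl2 and 38.1% for zmm15. These 4 relations were chosen after the values had been seen, and the permutations treat the 6 libraries as exchangeable. The adjustment covers only these 4 relations and does not account for that choice. Levels of zfl1 and zmm4 also ran together over the 6 libraries (r = 0.96), so their relations with the share are not independent.

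Read pair by pair, the same 6 libraries showed the same opposition in direction, which is no independent evidence. In pair 1 the tls1 library had the lower mitochondrial share and the higher zfl1 and zmm4 levels. In pairs 2 and 3 it had the higher mitochondrial share and the lower zfl1 and zmm4 levels. The zmm4 difference in pair 3 was only -0.907%. Because poly-A RNA was selected, a mitochondrial share need not measure mitochondrial RNA in the tissue. The part of this share, or of what sets it, in the levels of zfl1 and zmm4 was not tested.

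**Figure D4:**
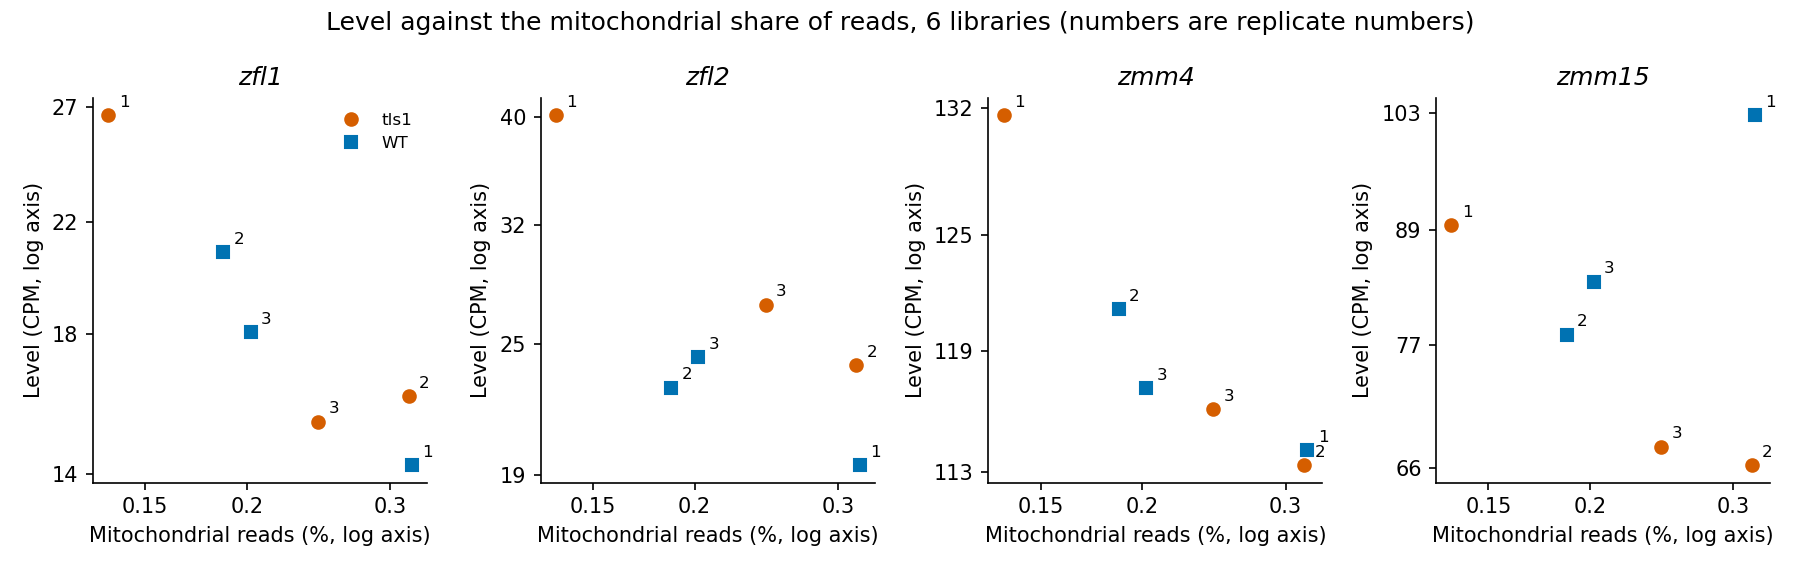
Level of each gene (CPM, log axis) against the percentage of counted reads from mitochondrial genes (log axis) in the 6 libraries; orange circles are tls1, blue squares WT, and numbers are replicate numbers. zfl1 and zmm4 descend from tls1 1 at 0.135% mitochondrial reads to the libraries near 0.32%, while zmm15 shows no such slope over the 6 libraries.

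Among the 6 relations between the 4 genes, none passed an adjusted p of 0.05 over the 6 libraries. The closest was zfl1 with zmm4, with r = 0.96 (exact permutation p = 0.00833, or 0.05 after adjustment), while rho was 0.83 (exact permutation p = 0.0583, or 0.350 after adjustment). Without tls1 1 and WT 2, the libraries farthest from the median zfl1 level, r was 0.61, and without tls1 1 alone it was 0.88. zfl2 with zmm4 had r = 0.84 (exact permutation p = 0.0750, or 0.153 after adjustment), while rho was 0.49 (exact permutation p = 0.356, or 0.711 after adjustment), and r was -0.42 without tls1 1 and WT 1. The LEAFY duplicates had r = 0.78 (exact permutation p = 0.0764, or 0.153 after adjustment), while rho was 0.49 (exact permutation p = 0.356, or 0.711 after adjustment). Without tls1 1 and WT 2, r of the LEAFY duplicates was 0.50, and without tls1 1 alone it was 0.20, so their likeness rested largely on that library. The MADS-box duplicates had r = 0.28 (exact permutation p = 0.599, or 0.898 after adjustment), while rho was 0.37 (exact permutation p = 0.497, or 0.746 after adjustment), and r = -0.0003 without tls1 1 and WT 2. For zmm15 with zfl1 and with zfl2, r was 0.15 and -0.07 (exact permutation p = 0.797 and 0.917, both 0.917 adjusted) and rho 0.03 and -0.14 (exact permutation p = 1.0 and 0.803, adjusted 1.0 and 0.963). Without the 2 farthest libraries these r were -0.32 and -0.45. Without tls1 1 alone they were -0.20 and -0.85, so the value for zfl2 depended strongly on that library.

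By likeness of log2 CPM over the 6 libraries, the gene closest to zfl1 among 23106 compared was Zm00001d039415 (r = 0.987), at 0.738, 0.327 and 0.294 CPM in tls1 libraries 1, 2 and 3, against 0.232, 0.483 and 0.334 CPM in WT libraries 1, 2 and 3. Closest to zfl2 was Zm00001d032652 (r = 0.988), whose own range was narrow, from 21.7 to 23.4 CPM in tls1 and from 20.8 to 21.6 CPM in WT. Closest to zmm4 was Zm00001d024384 (r = 0.996), with 2.63 to 4.48 CPM in tls1 and 2.62 to 3.45 CPM in WT. Closest to zmm15 was Zm00001d007786 (r = 0.998), with 0.422 to 1.10 CPM in tls1 and 0.690 to 1.49 CPM in WT. An r over 0.95 was reached by 35 to 49 of the compared genes for each of the 4, or 0.151% to 0.212%. These closest genes are the top of a long list compared over 6 libraries, and nothing particular is read from them. The files and the reference gene table do not name these 4 identifiers.

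The identifiers nearest in number to each gene were also read, 10 tested ones on each side. Of these 20, edgeR called 0 around each of the 4 genes, with or without the block. At an unadjusted p under 0.05 without the block, 3 of the 20 passed around zfl1, 5 around zfl2, 3 around zmm4 and 2 around zmm15, where 7.33% of all tested genes were higher and 9.22% lower. With the block these counts were 4, 5, 4 and 5 of the 20, where 9.17% of all tested genes were higher and 10.7% lower. The median log2 fold change, tls1 over WT, of the 20 was 0.07 around zfl1, 0.05 around zfl2, 0.03 around zmm4 and -0.09 around zmm15. Single values ran from -0.29 to 0.65 around zfl1 and from -0.55 to 4.48 around zfl2. Around zmm4 they ran from -0.89 to 1.03 and around zmm15 from -0.72 to 0.67. Higher in tls1 in all 3 pairs were 5 of the 20 around zfl1, 7 around zfl2, 5 around zmm4 and 2 around zmm15, against 24.6% of all tested genes. Lower in all 3 pairs were 3 around zfl1, 4 around zfl2, 4 around zmm4 and 7 around zmm15, against 21.3% of all tested genes. These counts are small and no test was made of them. The tested identifier just before zmm15 was picked for description after its values had been seen, and its change was not the largest among the neighbours. It had 91.9, 7.91 and 49.3 CPM in tls1 libraries 1, 2 and 3, against 127.9, 19.2 and 95.7 CPM in WT libraries 1, 2 and 3. Like zmm15, it was highest in number 1 and lowest in number 2 in both genotypes, and lower in tls1 in each pair. Its edgeR log2 fold change was -0.72 ± 0.93 without the block (SE, adjusted p = 0.738) and -0.91 ± 0.15 with it (SE, adjusted p = 0.0712), and it was called in neither fit. Whether reads of this neighbour and of zmm15 were kept apart in counting was not tested.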

How the data were processed

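The values are unnormalized read counts of 45953 features in 6 libraries, as deposited by the authors. The submitters' processing notes name cutadapt and STAR. Versions, genome build, counting program and strand setting were not given in the sources used here. Gene names were taken from the list that defines the 4 genes. The RefSeq gene table of assembly Zm-B73-REFERENCE-NAM-5.0 held 0 of 43789 nuclear identifiers, so other floral transition genes and tissue markers, listed by symbol, are not analysed here. The 4 genes and all lists were chosen with earlier results of these data known.

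From the counts, all genes were fitted with edgeR 4.0.16 in R 4.3.3 (quasi-likelihood F test, TMM, filterByExpr, genotype only, Benjamini-Hochberg over 23349 genes). The SE is the log2 fold change divided by the square root of F. The fits were checked on simulated counts, with changes larger than those fitted for the 4 genes. That check cannot show whether changes as small as theirs would be found. A count of 3 in a library equals 0.0387 to 0.0414 CPM. Named genes were the 4 members and, for each, the gene with the highest r. Exact permutation tests used scipy 1.17.1.

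Deviations from genotype means correlated at 0.378, 0.580 and 0.700 (log2 of CPM + 0.5) between same-numbered tls1 and WT libraries 1, 2 and 3. Between libraries of different number the correlations lay between -0.515 and 0.0314. Deviations from a shared genotype mean constrain each other, so these values are not independent. The numbers were therefore taken to pair libraries, from the data alone. Separate plants are not stated, so p-values measure only how far these libraries vary, which may be technical. Alternatives were RLE, upper quartile, other filters, DESeq2 1.42.0, limma-voom (limma 3.58.1), the block, left-out libraries and removal of the 10 most abundant genes.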

Additional observations from a re-analysis of the deposited data

How the results depend on the processing

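The log2 fold changes of the 4 genes missed an adjusted p of 0.05 in all 17 alternatives. zfl2 (0.11 to 0.59) and zmm15 (-0.40 to -0.13) kept their direction in all of them, while zfl1 (-0.31 to 0.32) and zmm4 (-0.06 to 0.08) reversed in 3 each. Leaving out 1 library gave from -0.18 to 0.25 for zfl1 and from -0.0443 to 0.0630 for zmm4. The replicate block without pair 1 gave -0.31 for zfl1 and -0.0620 for zmm4, against 0.08 and 0.01 with the block over all pairs. These fits had fewer libraries; any other cause was not tested. The block changed no call of the 4 genes.

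Over all genes, 1 was called by edgeR without the block, 13 with no filter, 2 by limma-voom, 1250 by DESeq2 and 162 with the replicate block. Leaving out 1 library gave from 0 to 9, and the block gave 433 with pair 1 left out, 159 with pair 2 and 52 with pair 3 left out. The cause was not tested.

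The difference in the zfl1 share ran from -6.42 to -3.70 percentage points and that in the zmm4 share from 2.30 to 6.40 when 1 library was left out, against -5.46 and 4.63 with all. Exchanging genotypes only within pairs (the replicate block for these shares) gave an exact permutation p of 0.25 for both, the smallest 3 pairs allow. With TMM-scaled levels, and, as alternatives chosen after seeing the data, without mitochondrial ribosomal RNA or with the plastid share, r lay between -0.98 and -0.94 for zfl1 and between -0.96 and -0.94 for zmm4.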
